A study of Homo sapiens with 18 samples.

Results

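The icaritin response of the cell line SNK-10 was set against the responses of SNT-8 and SNT-16. For each gene, the log2 difference between icaritin and DMSO in SNK-10 was reduced by the mean of the same difference in the 2 SNT lines. All 18 libraries of the study's 18 enter this contrast, with 3 in each of 6 groups, and 14396 genes could be tested. A positive value means a higher response in SNK-10, which can be a larger rise, a smaller fall or a rise where the SNT lines fell.

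The study measured RNA in 3 lines of NK/T cell lymphoma, labelled as wild type, after 12 h with icaritin or with DMSO, the solvent control. Its groups are SNK-10 with DMSO, SNK-10 with icaritin, and the same pair for SNT-8 and for SNT-16. The icaritin concentration was not given in the sources used here, and nothing says whether the 3 libraries of a group came from separate cultures, so a p-value reflects only how much these libraries vary. Each line is a single established line: what sets SNK-10 apart as a line and what could set apart any class of lines cannot be told apart with 1 line against 2.

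Icaritin is a prenylated flavonoid obtained from Epimedium plants, and the study's title names PLK1, a kinase that drives entry into and passage through mitosis, as its target. NK/T cell lymphoma is an Epstein-Barr virus-associated cancer of cytotoxic lymphocytes, in which cytokine signalling through JAK kinases and STAT factors supports growth. JAKs bound to cytokine receptors phosphorylate STATs, which enter the nucleus and switch on targets such as PIM1, CISH and SOCS2. Shortage of amino acids or other stress acts through a different route, in which translation slows and the factor ATF4 turns on genes for amino acid synthesis and import.

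Library totals were 9526431 to 10100453 estimated counts. The lymphoid identity of the lines was checked on marker genes in FPKM. CD3E, a T cell receptor subunit, was at 189 to 254 FPKM in the DMSO libraries of the 3 lines, and the T cell marker CD247 at 62.3 to 70.7. CD3D was at 15.1 to 20.1 in SNK-10 and 132 to 157 in the SNT lines. CD3G was at 7.41 to 9.93 and 43.9 to 54.2. The T cell markers CD5 and CD6 were at 0.19 or below in every DMSO library, and the T cell receptor constant genes were not listed. With DMSO the 9 summed NK cell markers were at 298 to 315 in SNK-10 and 37.3 to 49.5 in the SNT lines. That sum was carried in SNK-10 by the signalling adaptors FCER1G (224 to 233, against 0.53 to 1.29 in the SNT lines) and TYROBP (41.9 to 45.9, against 0 to 0.74). FCGR3A (7.72 to 8.77 against 0 to 0.14) and KIR2DL4 (1.34 to 1.81 against 0.46 to 0.73) were also higher in SNK-10. NCAM1 was lower there, at 3.04 to 3.19 against 7.19 to 11.4. So were KLRD1, at 4.56 to 5.30 against 8.55 to 11.1, and KLRC1, at 6.45 to 7.51 against 9.31 to 16.0. NCR1 overlapped (6.83 to 10.3 against 9.10 to 10.7), and KLRF1 was at 0.12 or below in every DMSO library. Of 7 B and plasma cell markers, 1 or 2 exceeded 1 FPKM in each group, nearly all of it MZB1, a chaperone of the endoplasmic reticulum. MZB1 was at 85.7 to 93.8 in SNK-10 and at 189.6 to 202 in the SNT lines with DMSO, and at 42.0 to 49.7 and 83.6 to 124 with icaritin. Of 7 myeloid markers 2 or 3 exceeded 1 FPKM. The icaritin libraries SNT-8 replicate 2 and SNK-10 replicate 3 stood apart from their groups, with a chi-square per gene against their partners of 5.96 to 8.18 and of 3.41 to 4.13, where the other pairs were at 1.37 to 3.07.

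The response differed in SNK-10 at 2033 genes (14.1% of those tested) by edgeR's quasi-likelihood test with Benjamini-Hochberg adjustment. Of these, 1184 had a higher response (8.22%) and 849 a lower one (5.9%). Most differences were modest, with a median size of 0.37 on the log2 scale among the genes called, and 168 genes (1.17%) differed at least 2-fold. These 168 were mostly weakly expressed: 158 were under 10 CPM (counts scaled to the effective library size) in the DMSO libraries of 1 line or more. SNK-10 against SNT-8 alone gave 1551 genes and against SNT-16 alone 1801, and the same test of SNT-8 against SNT-16 called 63 (0.438%). That smaller count depended on single libraries, and was 178 without SNT-8 icaritin replicate 2, 152 without SNK-10 icaritin replicate 3 and 441 without both, where SNK-10 against the SNT lines gave 2250. In RNA from whole cultures, a change in every cell and a change in the share of cells in some state cannot be told apart.

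Within the lines, icaritin raised 24.4% of genes and lowered 24% in SNK-10, raised 24% and lowered 25% in SNT-8, and raised 21.2% and lowered 20.8% in SNT-16. The mean of the SNT lines changed at 56.8% of genes. Across 9332 genes at 10 CPM or more, the response of SNK-10 and the mean response of the SNT lines had a Pearson r of 0.83, and those of SNT-8 and SNT-16 one of 0.89, as a description across genes that share libraries and are not independent.

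Higher response in SNK-10 took several forms. Among the 1184 genes, 357 rose in SNK-10 and in the SNT mean, 281 rose in SNK-10 where the SNT mean did not pass the test, 281 did not pass in SNK-10 where the SNT mean fell, 151 fell in both and 111 rose in SNK-10 where the SNT mean fell. Among the 849 with a lower response, 237 did not pass in SNK-10 where the SNT mean rose. Another 211 fell in SNK-10 where the SNT mean did not pass, 194 fell in both and 120 rose in both. A further 81 fell in SNK-10 where the SNT mean rose. A narrower count took only called genes with a symbol, a mean of 10 CPM or more and at least 1 CPM in each group. Of these, 83 passed the threshold in opposite directions in SNK-10 and in each SNT line, and 52 of the 83 rose in SNK-10.

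**Figure D1:**
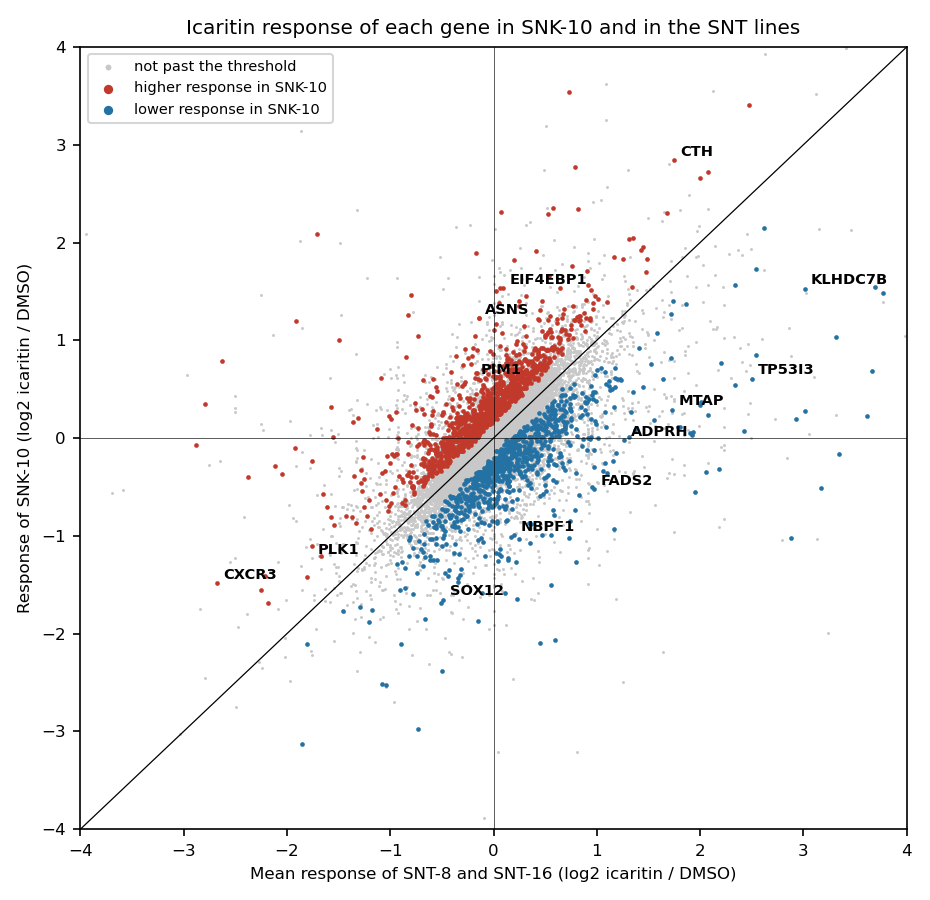
Response of each gene in SNK-10 (vertical axis, log2 icaritin over DMSO) against the mean response of SNT-8 and SNT-16 (horizontal axis, same unit), with 1 point per gene. The 1184 genes in red lie above the diagonal and the 849 in blue below it. Of the 14396 genes, 20 lie outside the axes, which end at 4 on the log2 scale.

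The regulatory sequences shown here are the 250 bases before the RefSeq start of 4 genes, on the gene's strand and in build GRCh38.p14. They are given because ASNS had one of the highest responses in SNK-10, and because CISH, IRF1 and ICAM1 stand for the JAK-STAT, interferon and NF-kB groups described further on; the 4 were chosen after their values were seen. Capitals mark TGATGNAA in ASNS, a form of the composite site that ATF4 is known to bind, and TTCNNNGAA in the others, the core to which STAT dimers are known to bind (N is any base). Both strands were searched, and TTCNNNGAA reads the same on either strand. No binding motif of NF-kB was searched for, so the mark in ICAM1 and the counts for NF-kB genes concern the STAT core only.
ASNS: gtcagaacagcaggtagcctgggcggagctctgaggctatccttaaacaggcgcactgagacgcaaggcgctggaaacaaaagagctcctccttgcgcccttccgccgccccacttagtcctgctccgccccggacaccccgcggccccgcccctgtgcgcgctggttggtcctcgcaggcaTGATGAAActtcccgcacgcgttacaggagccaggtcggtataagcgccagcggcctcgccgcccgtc
CISH: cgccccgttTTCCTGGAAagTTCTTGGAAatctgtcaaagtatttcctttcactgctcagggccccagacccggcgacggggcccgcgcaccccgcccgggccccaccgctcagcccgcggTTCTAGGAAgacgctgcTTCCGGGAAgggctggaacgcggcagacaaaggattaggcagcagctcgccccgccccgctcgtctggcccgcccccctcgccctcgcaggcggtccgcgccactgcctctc
IRF1: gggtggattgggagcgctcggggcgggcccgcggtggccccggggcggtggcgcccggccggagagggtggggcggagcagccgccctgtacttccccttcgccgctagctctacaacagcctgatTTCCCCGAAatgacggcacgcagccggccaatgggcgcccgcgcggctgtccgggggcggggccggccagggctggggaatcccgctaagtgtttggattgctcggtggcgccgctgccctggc
ICAM1: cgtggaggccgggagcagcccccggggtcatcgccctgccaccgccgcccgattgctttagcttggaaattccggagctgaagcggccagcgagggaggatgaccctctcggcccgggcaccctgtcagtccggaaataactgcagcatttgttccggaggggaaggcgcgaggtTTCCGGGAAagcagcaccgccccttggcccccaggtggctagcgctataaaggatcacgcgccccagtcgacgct
The windows are at chr7:97872409-97872658 (minus strand), chr3:50611775-50612024 (minus strand), chr5:132490774-132491023 (minus strand) and chr19:10270870-10271119 (plus strand). The match in ASNS begins at -68 from the start, those in CISH at -241, -230, -129 and -112, that in IRF1 at -124 and that in ICAM1 at -75. TTCNNNGAA was in 6.79% of 27195 RefSeq windows and in 5.78% of the 11214 windows of tested genes. Among interferon-stimulated genes with a window it was in 6 of the 17 with a higher response and in 3 of the other 17. Among the JAK-STAT genes it was in 1 of 9 with a higher response (CISH) and in 1 of the other 11, and among the NF-kB genes in 1 of 11 (ICAM1) and 3 of the other 13. TGATGNAA was in 1.54% of the windows of tested genes, in 1 of 8 ATF4-related genes with a higher response and in 3 of the other 22. A match is a match of letters and says nothing about binding in these cells.

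Genes with the highest response in SNK-10 included regulators of translation and amino acid supply. EIF4EBP1, whose product 4E-BP1 blocks cap-dependent translation, was at 18.3, 18.1 and 16.5 CPM in SNK-10 with DMSO and at 51.5, 50.01 and 52.2 with icaritin. SNT-8 had 7.89, 8.81 and 7.01 and then 5.99, 8.63 and 7.47, while SNT-16 had 7.03, 7.83 and 7.43 and then 9.36, 10.5 and 7.50. The treated and control groups overlapped in both SNT lines but not in SNK-10, with a difference in response of 1.44 ± 0.14 (log2, SE; adjusted p = 6.77e-10).

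ASNS, asparagine synthetase, was far more abundant in SNK-10 already with DMSO, at 29.7 times the SNT mean. Its libraries stood at 51.3, 48.2 and 47.0 CPM with DMSO and at 113, 111 and 120 with icaritin. Both SNT lines were near the floor, SNT-8 at 1.72, 1.92 and 1.70 and then 1.80, 1.61 and 1.48, and SNT-16 at 1.73, 1.49 and 1.29 and then 1.95, 0.691 and 1.38. SNK-10 rose without overlap while treated and control libraries overlapped in both SNT lines, and the difference was 1.38 ± 0.21 (adjusted p = 9.15e-06). At under 2 CPM a modest change in the SNT lines would be hard to see. THBS4, a matrix glycoprotein of the thrombospondin family, also differed in level (19.9 times the SNT mean with DMSO). It was at 123, 124 and 124 CPM in SNK-10 with DMSO and at 181, 176 and 202 with icaritin. SNT-8 went from 6.27, 5.57 and 6.51 to 4.59, 2.41 and 4.62, and SNT-16 from 5.61, 6.14 and 7.13 to 3.70, 4.34 and 3.55. THBS4 rose in SNK-10 and fell in both SNT lines with no overlap in any line (difference 1.27 ± 0.14, adjusted p = 1.38e-08); the gene overlaps THBS4-AS1.

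ATP9A, a phospholipid flippase of the endosome, showed the reverse in level, at 0.0628 times the SNT mean with DMSO. In SNK-10 it was at 1.26, 1.78 and 1.80 CPM with DMSO and at 3.14, 2.47 and 3.07 with icaritin. SNT-8 went from 14.97, 16.3 and 17.3 to 11.4, 10.3 and 14.3, and SNT-16 from 34.9, 34.5 and 36.4 to 28.3, 28.3 and 29.4. Its responses were again opposite and without overlap in each line (difference 1.20 ± 0.26, adjusted p = 0.000815). Every SNK-10 library was under 10 CPM, so ATP9A met the mean required for naming through the SNT lines, and its rise in SNK-10 rests on low counts. CXCR3, the receptor for the interferon-induced chemokines CXCL9, CXCL10 and CXCL11, fell in all 3 lines. It went from 105, 94.5 and 107 CPM to 38.1, 37.5 and 33.6 in SNK-10, from 96.4, 106 and 95.8 to 13.5, 9.13 and 17.9 in SNT-8, and from 114, 122 and 120 to 17.9, 22.8 and 22.8 in SNT-16. The lines started from like levels, and the fall in SNK-10 was the smaller by 1.20 ± 0.15 (adjusted p = 3.37e-05), with every treated SNK-10 library above every treated SNT library.

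SAMSN1, an adaptor that restrains lymphocyte activation, was at 23.7, 22.2 and 20.6 CPM in SNK-10 with DMSO and at 40.0, 39.9 and 46.0 with icaritin. In SNT-8 it went from 10.5, 8.81 and 9.21 to 8.08, 6.12 and 7.08, and in SNT-16 from 7.44, 6.24 and 6.64 to 6.82, 6.91 and 7.01. It rose in SNK-10, fell in SNT-8 and did not pass the test in SNT-16, where the groups overlapped (difference 1.12 ± 0.13, adjusted p = 7.84e-08). MTRNR2L3, a nuclear copy of part of the mitochondrial 16S ribosomal RNA gene, was at 11.7, 13.9 and 14.6 CPM and then 38.7, 48.3 and 40.0 in SNK-10. It was at 10.8, 10.8 and 11.6 and then 14.9, 15.2 and 18.6 in SNT-8, and at 9.07, 8.92 and 8.02 and then 13.1, 13.5 and 11.0 in SNT-16. All 3 lines rose without overlap and SNK-10 by more (difference 1.12 ± 0.14, adjusted p = 1.76e-07), but reads of this gene and of mitochondrial RNR2 may have been exchanged, and it overlaps RAE1, so its own level is uncertain.

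The mitochondrial ribosomal RNAs moved the same way. RNR2, the 16S ribosomal RNA of the mitochondrion, took 1.5% to 1.55% of all counts in SNK-10 with DMSO and 4.59% to 5.12% with icaritin. Its share went from 1.19% to 1.33% up to 2.12% to 2.78% in SNT-8, and from 0.83% to 0.89% up to 1.65% to 1.77% in SNT-16. The response difference was 0.81 ± 0.11 for RNR2 (adjusted p = 0.000127) and 1.00 ± 0.12 for RNR1, the 12S ribosomal RNA (adjusted p = 5.05e-05). Only these 2 mitochondrially encoded RNAs could be tested. Among 52 nuclear genes of oxidative phosphorylation 2 had a higher response and none a lower one. Both counts are under the shares over all genes tested (8.22% higher and 5.9% lower).

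Of the other genes with high responses, CTH, which makes cysteine from cystathionine, rose in all 3 lines and most in SNK-10 (2.84 against 1.93 in SNT-8 and 1.57 in SNT-16, log2; difference 1.09 ± 0.10, adjusted p = 8.21e-11). It started lower in SNK-10, at 11.7 to 13.95 CPM against 25.5 to 35.4, and with icaritin stood at 82.5 to 95.1 there and at 100 to 106 in the SNT lines. GADD45B, a stress sensor of the growth arrest and DNA damage family, rose by 0.67 in SNK-10 and fell in SNT-8 and SNT-16. ENPP2, the enzyme autotaxin, behaved alike in sign, at 0.52 in SNK-10 and -0.56 in both SNT lines. CSF1, the macrophage growth factor, rose by 0.74 in SNK-10 from a lower level (28.4 to 29.0 CPM against 79.6 to 99.8), and fell in both SNT lines.

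**Figure D2:**
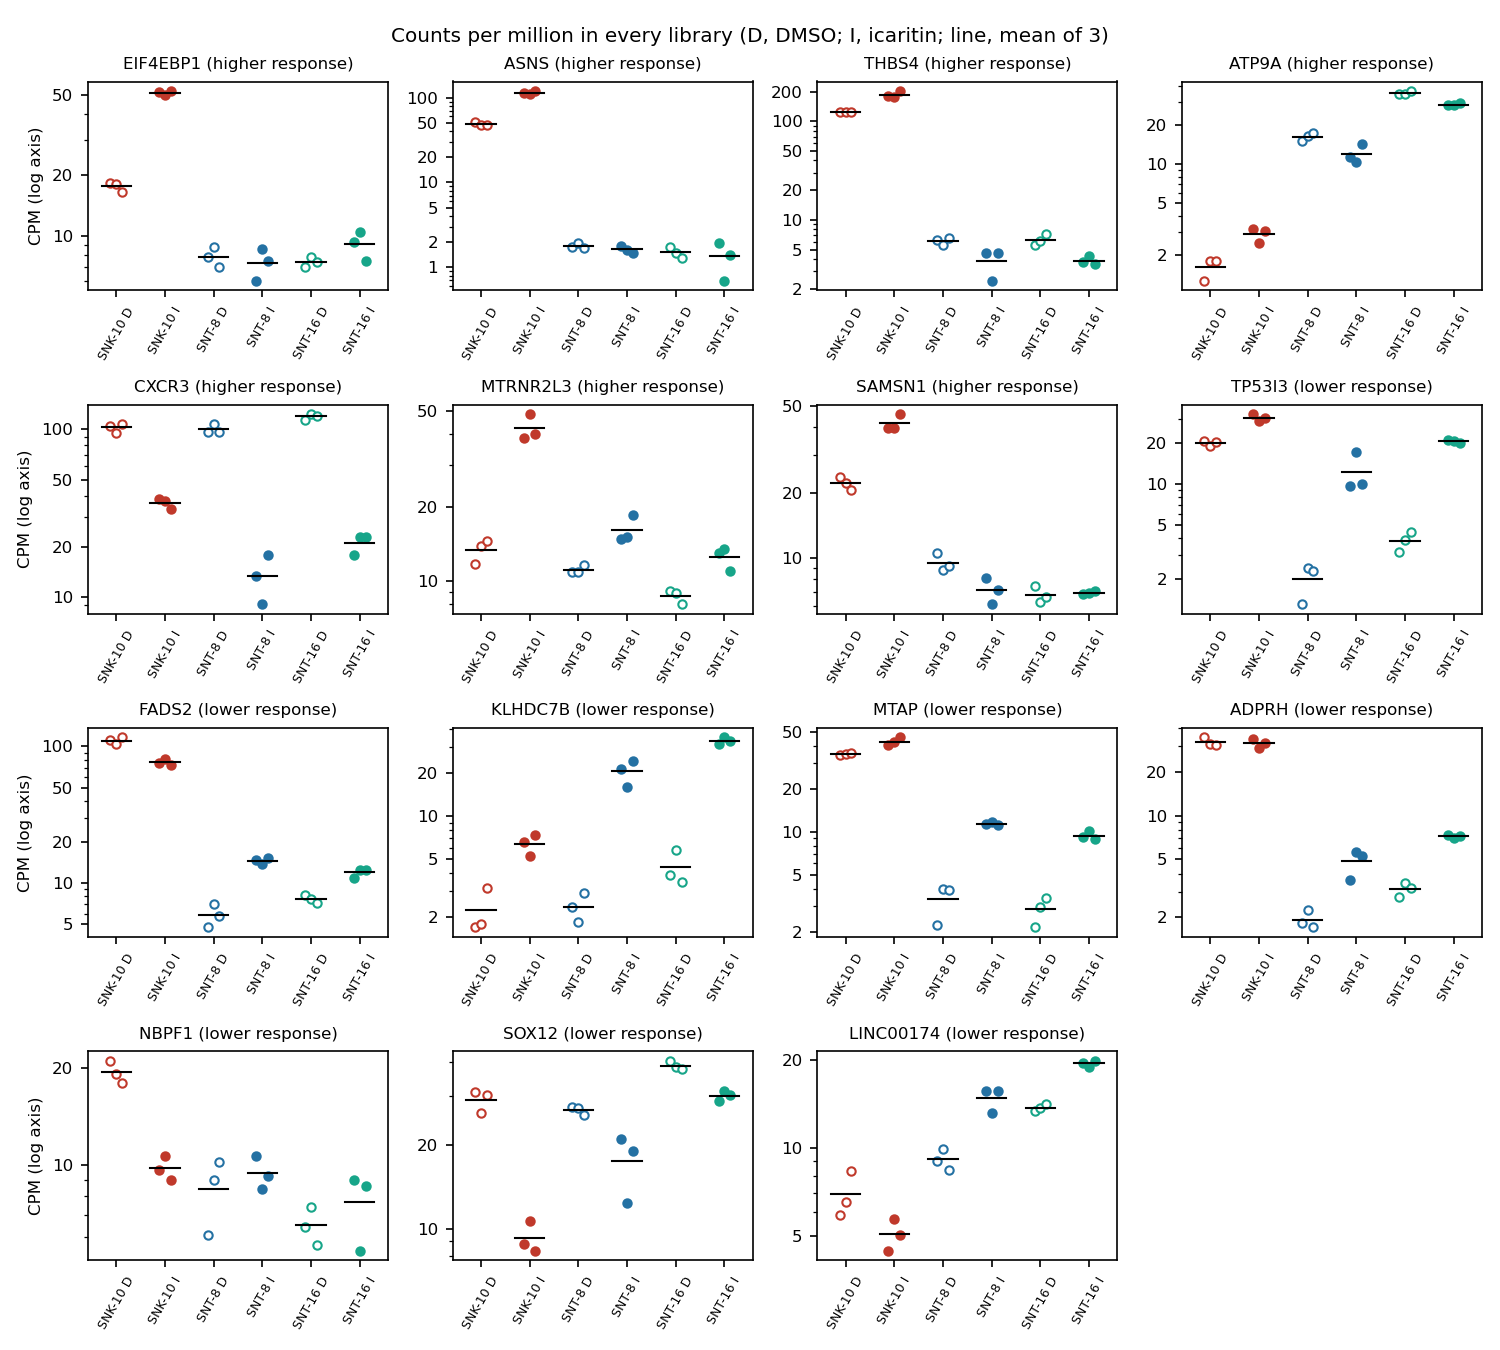
CPM in each library (log axis) for 15 of the genes with the highest or lowest response differences under the naming rule. Open points are DMSO libraries, filled points icaritin libraries and black lines means of 3. In the panels for ASNS, THBS4, FADS2, MTAP and ADPRH the SNK-10 points lie far above the SNT points with either treatment.

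Among genes with a mean of 10 CPM or more and at least 1 CPM in each group that also passed against each SNT line, the lowest response in SNK-10 was that of TP53I3, a p53 target that encodes a quinone oxidoreductase. It was at 20.6, 19.0 and 20.3 CPM in SNK-10 with DMSO and at 32.3, 28.7 and 30.4 with icaritin. SNT-8 went from 1.31, 2.43 and 2.30 to 9.68, 17.1 and 10.03, and SNT-16 from 3.16, 3.86 and 4.46 to 20.9, 20.5 and 19.9. It rose without overlap in every line, but by 0.61 in SNK-10 against 2.59 and 2.41 in the SNT lines (difference -1.90 ± 0.19, adjusted p = 2.91e-08); the gene overlaps FAM228B. FADS2, the desaturase that starts the synthesis of polyunsaturated fatty acids, was at 110, 104 and 116 CPM in SNK-10 with DMSO and at 75.2, 81.3 and 73.6 with icaritin. SNT-8 went from 4.76, 7.09 and 5.81 to 14.8, 13.7 and 15.2, and SNT-16 from 8.16, 7.73 and 7.13 to 10.9, 12.5 and 12.5. It fell in SNK-10 and rose in both SNT lines with no overlap (difference -1.50 ± 0.11, adjusted p = 9.84e-13), and with icaritin its mean was 76.7 CPM in SNK-10, 14.6 in SNT-8 and 10.9 to 12.5 across the SNT-16 libraries; FADS2 overlaps FADS1.

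KLHDC7B, a kelch-domain gene, rose everywhere. It went from 1.68, 1.78 and 3.17 CPM to 6.61, 5.27 and 7.35 in SNK-10, from 2.33, 1.82 and 2.90 to 21.4, 16.0 and 24.0 in SNT-8, and from 3.87, 5.85 and 3.47 to 31.6, 35.1 and 33.2 in SNT-16. Treated SNK-10 libraries lay below all treated SNT libraries (difference -1.49 ± 0.32, adjusted p = 0.00143). Only the treated SNT libraries were above 10 CPM, and KLHDC7B met the mean required for naming through them. MTAP, which returns methylthioadenosine to the methionine pool, was at 34.3, 35.1 and 35.3 CPM in SNK-10 with DMSO and at 40.3, 42.3 and 45.6 with icaritin. SNT-8 went from 2.23, 3.95 and 3.90 to 11.4, 11.6 and 11.1, and SNT-16 from 2.14, 2.97 and 3.47 to 9.26, 10.07 and 8.88. The rise was 0.29 in SNK-10 and 1.75 and 1.71 in the SNT lines, none with overlap (difference -1.44 ± 0.15, adjusted p = 2.56e-09). Every SNT library with DMSO was under 10 CPM, and MTAP met the mean required for naming largely through SNK-10.

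ADPRH, which removes ADP-ribose from arginine, was at 34.5, 31.0 and 30.8 CPM in SNK-10 with DMSO and at 33.9, 29.3 and 31.6 with icaritin. SNT-8 went from 1.82, 2.23 and 1.70 to 3.59, 5.62 and 5.31, and SNT-16 from 2.75, 3.47 and 3.17 to 7.41, 7.01 and 7.21. SNK-10 libraries overlapped and the SNT lines rose without overlap (difference -1.29 ± 0.16, adjusted p = 2.59e-07). Every SNT library was under 10 CPM, so ADPRH met the mean of 10 CPM required for naming through SNK-10. SOX12, a transcription factor of the SOX family, went from 31.1, 26.1 and 30.2 CPM to 8.77, 10.7 and 8.33 in SNK-10, from 27.5, 27.2 and 25.7 to 21.1, 12.3 and 19.1 in SNT-8, and from 40.3, 38.1 and 37.5 to 28.8, 31.4 and 30.3 in SNT-16. It fell in each line and most in SNK-10 (difference -1.17 ± 0.15, adjusted p = 1.80e-06).

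NBPF1 belongs to a family of near-identical copies among which reads can be split, so its values are uncertain. It went from 21.1, 19.2 and 17.97 CPM to 9.64, 10.7 and 8.99 in SNK-10, from 6.07, 9.01 and 10.2 to 10.7, 8.43 and 9.24 in SNT-8, and from 6.42, 7.43 and 5.64 to 8.97, 5.43 and 8.59 in SNT-16. Only SNK-10 was separated (difference -1.19 ± 0.19, adjusted p = 2.49e-05). LINC00174, a long noncoding RNA, went from 5.90, 6.51 and 8.35 CPM to 4.44, 5.70 and 5.04 in SNK-10, from 9.01, 9.92 and 8.41 to 15.6, 13.1 and 15.6 in SNT-8, and from 13.4, 13.7 and 14.1 to 19.5, 19.0 and 19.8 in SNT-16. It fell in SNK-10 and rose in the SNT lines without overlap in any line (difference -1.05 ± 0.18, adjusted p = 4.19e-05).

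MYBL1, a MYB-family transcription factor, and NEDD9, a focal adhesion scaffold, fell in SNK-10 by 0.57 and 0.33 on the log2 scale and rose in SNT-8 (0.32 and 0.65) and in SNT-16 (0.64 and 0.74). NEDD9 was at 97.3 to 105 CPM in SNK-10 with DMSO and at 6.91 to 8.62 in the SNT lines. FOSL1, an AP-1 subunit, fell in SNK-10 and rose in both SNT lines as well (-0.48, 0.56 and 0.43). PTPRM, a receptor phosphatase, rose in the SNT lines (1.02 and 0.79) and had a response of -0.12 in SNK-10 that did not pass the test.

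Counts for gene lists can be read against all genes tested, of which 8.22% had a higher and 5.9% a lower response. Calls were more frequent among well expressed genes, at 1688 of the 8611 with 10 CPM or more with DMSO in each line. Interferon-stimulated genes leaned to a higher response in SNK-10. Of 46 tested, 23 had a higher response, 1 a lower one and 22 did not pass, with a median difference of 0.33 where the median of all genes tested was near 0 (-0.0021). Within lines, 20 of the 46 rose and 8 fell in SNK-10, 7 rose and 23 fell in SNT-8, and 8 rose and 27 fell in SNT-16.

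XAF1, an interferon-induced promoter of apoptosis, rose by 0.35 in SNK-10 and fell in the SNT lines, with -0.25 in SNT-8 and -0.67 in SNT-16 (difference 0.81, adjusted p = 9.14e-12). IFI16, a sensor of nuclear DNA, rose in SNK-10 by 0.15 and fell in the SNT lines (-0.29 and -0.38); it overlaps AIM2. GBP4, a guanylate-binding protein, rose in all lines and most in SNK-10 (0.67 against 0.18 and 0.14). IRF1, an interferon-response factor whose window is printed above, had a difference of 0.51 (adjusted p = 2.25e-07) with 0.23 in SNK-10, -0.32 in SNT-8 and -0.23 in SNT-16. MHC class I and antigen processing had 4 of 19 genes with a higher response and none with a lower one, among them the immunoproteasome subunit PSMB9 and the peptide transporter TAP1.

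JAK-STAT genes were split, 10 of 22 with a higher response, 3 with a lower one and 9 that did not pass (median 0.24). PIM1, a survival kinase induced by STATs, was at 212, 207 and 209 CPM in SNK-10 with DMSO and at 310, 326 and 327 with icaritin. It went from 249, 243 and 250.4 to 219, 235 and 250.2 in SNT-8 and from 261, 262 and 251 to 196, 220.2 and 217 in SNT-16. The groups were separated upwards in SNK-10, overlapped in SNT-8 and were separated downwards in SNT-16 (difference 0.80 ± 0.060, adjusted p = 2e-12). STAT5A rose by 0.75 in SNK-10 and by 0.28 in SNT-8, and was at -0.02 in SNT-16, which did not pass; it overlaps STAT5B.

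Feedback inhibitors of the pathway were among these genes too. SOCS2 rose in SNK-10 by 0.26 and fell in the SNT lines (-0.46 and -0.24). CISH fell in each line, by 0.50 in SNK-10, 1.02 in SNT-8 and 0.90 in SNT-16 (difference 0.46, adjusted p = 0.00451). The 3 genes with a lower response were STAT4, the kinase gene TYK2 and PTPN6, which encodes the phosphatase SHP-1. STAT4, which carries interleukin-12 signals, fell in SNK-10 (-0.32), rose in SNT-8 (0.41) and did not pass in SNT-16 (0.26; difference -0.65, adjusted p = 0.00023). TYK2 did not pass against SNT-16 alone (adjusted p = 0.285), nor PTPN6 against SNT-8 alone (adjusted p = 0.064). PTPN6 was near the floor in the SNT lines with DMSO, at 0.304 to 0.607 CPM in SNT-8 and 0 to 0.198 in SNT-16 against 13.96 to 15.8 in SNK-10. It could be tested because of its level in SNK-10, and its responses in the SNT lines rest on a few counts per library.

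NF-kB genes had 12 of 26 with a higher response, none with a lower one and 14 that did not pass (median 0.25). ICAM1, an adhesion molecule induced by NF-kB, was at 378, 368 and 376 CPM in SNK-10 with DMSO and at 740, 749 and 829 with icaritin. It went from 380, 379 and 380 to 452, 527 and 448 in SNT-8 and from 346, 352 and 351 to 440, 427 and 431 in SNT-16. ICAM1 began at like levels, rose in every line without overlap, and rose further in SNK-10 (difference 0.73 ± 0.061, adjusted p = 2.20e-11).

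For other members of the group the SNT lines fell while SNK-10 did not pass the test. NFKBIA, the inhibitor IkB-alpha and itself an NF-kB target, was at -0.04 in SNK-10 and fell in SNT-8 and SNT-16 (-0.77 and -0.60; difference 0.64, adjusted p = 3.83e-10). BIRC3, an inhibitor of apoptosis, was at -0.07 in SNK-10 and fell in the SNT lines (-0.68 and -0.54). BCL3, a nuclear IkB protein counted in this group and among the JAK-STAT genes, rose by 0.40 in SNK-10 and fell in the SNT lines (-0.25 and -0.56).

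Cytokine receptors had 11 of 27 with a higher response and none with a lower one (median 0.24), a count of 6 against SNT-16 alone and 10 against SNT-8 alone. IL15RA, which presents interleukin-15, rose in SNK-10 by 0.63 and was at 0.04 and -0.04 in the SNT lines, neither past the threshold. IL6ST, the shared gp130 subunit, rose in all lines and most in SNK-10 (1.22 against 0.70 and 0.53). IL10RA rose by 0.31 in SNK-10, fell in SNT-8 (-0.37) and did not pass in SNT-16. IL2RB, shared by the receptors for interleukins 2 and 15, fell in each line and least in SNK-10 (-0.28 against -0.71 and -0.53).

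Among 29 cytokines and chemokines, 8 had a higher response and 3 a lower one. Several fell in all lines but less in SNK-10, as for LTA, lymphotoxin alpha (-0.42 against -1.40 and -1.12; difference 0.84, adjusted p = 1.70e-11), and CCL2, a monocyte attractant (-1.41 against -2.41 and -2.02). Of 30 checkpoint and costimulation genes, 8 had a higher response and 2 a lower one, a count of 5 higher against SNT-16 alone. HAVCR2, the checkpoint receptor TIM-3, rose by 0.55 in SNK-10 and fell in the SNT lines (-0.25 and -0.32; difference 0.84, adjusted p = 9.11e-09). CD274, the ligand PD-L1, likewise rose by 0.44 in SNK-10 and fell in both others (-0.25 and -0.41).

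Lineage and antigen receptor genes also leaned upwards. Of 23 lineage transcription factors, 9 had a higher response and 1 a lower one (median 0.30). GATA3 rose by 0.19 in SNK-10 and fell in the SNT lines (-0.25 and -0.41), while TBX21, the factor T-bet, fell everywhere and least in SNK-10 (-0.87 against -1.44 and -1.23). Of 12 T cell receptor signalling genes, 5 had a higher response and none a lower one, a count of 3 against SNT-16 alone. LCP2, the adaptor SLP-76 of that pathway, fell in each line and least in SNK-10 (-0.38 against -0.90 and -0.77). The cytotoxic granule genes had 2 of 15 with a higher response, and the NK cell markers 2 of 19 with a higher and 1 with a lower one. These counts are not far from the shares over all genes tested (8.22% higher and 5.9% lower).

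**Figure D3:**
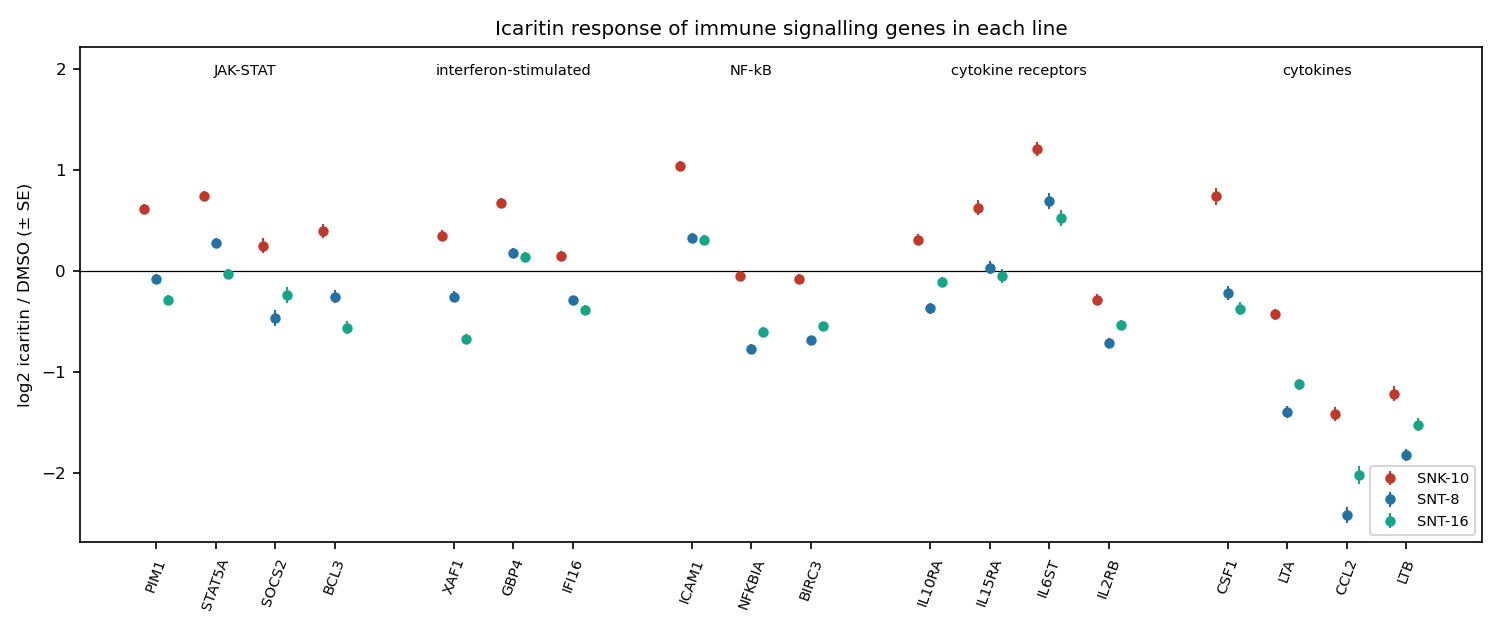
Response to icaritin of immune signalling genes (log2 icaritin over DMSO, vertical axis) in each line, with points for the fitted value and bars for its SE, from 3 libraries per group. The genes shown were picked for a higher response in SNK-10, so a SNK-10 point above the SNT mean follows from the choice. In each of them it lies above both SNT points, whether the SNT lines fell, as for XAF1, or rose, as for ICAM1. Members of these lists with a lower response, such as STAT4 and PTPN6, are not shown.

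PLK1, named in the title, fell in all 3 lines. It was at 272, 240 and 257 CPM in SNK-10 with DMSO and at 104, 112 and 112 with icaritin, went from 248, 251 and 236 to 82.4, 42.4 and 89.2 in SNT-8, and from 247, 259 and 245 to 65.8, 78.4 and 80.0 in SNT-16. The groups did not overlap in any line and each treated SNK-10 library lay above each treated SNT library. The fall was 1.23 in SNK-10, 1.78 in SNT-8 and 1.74 in SNT-16, but the difference of 0.53 ± 0.21 did not pass the test (adjusted p = 0.127). Without SNT-8 icaritin replicate 2, the lowest library, it did (adjusted p = 2.79e-05), and it also did without SNT-8 icaritin replicate 3 (adjusted p = 0.0481) and without both outlying libraries (adjusted p = 0.000521). With all 18 libraries it passed by limma-voom (0.57, adjusted p = 0.0178) and by edgeR with no filter on low counts (0.55, adjusted p = 1.2e-13). These are the 5 of 29 alternatives in which PLK1 passed. In the other 24 it did not, among them DESeq2, the replicate block, other scalings and each SNT line alone. The difference itself hardly changed without the filter, and why its adjusted p did was not tested. PLK1 overlaps ERN2.

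The wider group of mitotic genes leaned upwards in SNK-10. Of 50 genes of G2/M and mitosis, 14 had a higher response, none a lower one and 36 did not pass (median 0.20), while 34 of the 50 fell in SNK-10, 43 did in SNT-8 and 40 did in SNT-16. CDC20, an activator of the anaphase-promoting complex, fell by 1.11 in SNK-10 and by 1.76 in either SNT line (difference 0.65 ± 0.088, adjusted p = 7.39e-06). TTK, a spindle checkpoint kinase, was at 0.10 in SNK-10, which did not pass, and fell in the SNT lines (-0.43 and -0.36). AURKB, the Aurora B kinase, was at 0.00 in SNK-10, which did not pass, and fell in the SNT lines (-0.48 and -0.41), and CDCA8, which works with it on chromosomes, fell least in SNK-10.

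DNA replication genes ran the other way. Of 48 genes of G1/S and replication, 4 had a higher and 15 a lower response, the latter being 8 against SNT-8 alone and 16 against SNT-16 alone. PCNA, the clamp of replicative polymerases, rose in SNT-8 and SNT-16 (0.26 and 0.45) and was at -0.09 in SNK-10, which did not pass (difference -0.45 ± 0.060, adjusted p = 7.98e-07). ORC6, of the origin recognition complex, fell by 0.22 in SNK-10 and rose in the SNT lines (0.36 and 0.38). MCM6, of the replicative helicase, fell in SNK-10 (-0.35) and did not pass in either SNT line. The cyclin gene CCND2, among the 4 higher, rose by 0.20 in SNK-10 and fell in the others (-0.34 and -0.27); it overlaps CCND2-AS1.

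Of 35 genes that act in recombination repair or in the Fanconi anaemia pathway, 8 had a lower response, none a higher one and 27 did not pass (median -0.054). FANCL, the ubiquitin ligase of the Fanconi core complex, fell by 0.74 in SNK-10 and by 0.34 in SNT-8 and did not pass in SNT-16 (0.12; difference -0.63 ± 0.12, adjusted p = 0.000308); the gene overlaps VRK2. Against SNT-8 alone its difference did not pass (adjusted p = 0.061). Among 27 signalling genes of the DNA damage response, 25 did not pass, 1 had a higher response and 1, the kinase gene ATM, a lower one (median 0.027). The call of ATM was lost on leaving out any of 10 single libraries, with an adjusted p of up to 0.147, without SNK-10 icaritin replicate 3.

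Among 27 p53 targets, 12 had a lower response, 2 a higher one and 13 did not pass (median -0.30), although most rose with icaritin everywhere (21 in SNK-10, 22 and 23 in the SNT lines). BTG2, which slows the cell cycle, rose by 0.47 in SNK-10 and by 0.96 in either SNT line (difference -0.49, adjusted p = 6.20e-07). POLH, a polymerase that copies past ultraviolet damage, rose by 0.29 against 0.77 and 0.71, and SESN2, a stress-induced restraint on mTORC1 that ATF4 also induces, by 1.37 against 1.92 and 1.81. The 2 targets that were higher were MDM2, the negative regulator of p53 (1.39 against 1.21 and 0.99), and the apoptosis inducer BBC3 (1.93 against 1.80 and 1.07). Neither passed against SNT-8 alone, with adjusted p = 0.127 and 0.623.

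ATF4-related genes rose in all lines, 31 of 36 in each, and 11 had a higher and 5 a lower response in SNK-10 (median 0.087), the higher count being 7 against SNT-8 alone. ATF4 itself rose by 1.03 in SNK-10 against 0.55 and 0.71 (difference 0.40 ± 0.055, adjusted p = 9.88e-07). SLC3A2 and SLC7A5, the 2 chains of an amino acid transporter, rose by 1.42 and 1.12 in SNK-10, by 0.99 and 0.72 in SNT-8 and by 0.80 and 0.61 in SNT-16. The lower members included ATF3, which rose in every line but less in SNK-10 (1.26 against 1.80 and 1.62), ATF5, which fell in SNK-10 (-0.20) and rose in the SNT lines (0.41 and 0.45), and PSPH of serine synthesis.

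In the endoplasmic reticulum list, 10 of 25 had a lower response and 2 a higher one, the lower count being 6 against SNT-8 alone. DNAJC3, a co-chaperone that restrains the kinase PERK, fell by 0.44 in SNK-10 and did not pass in SNT-8 (0.04). In SNT-16 it rose slightly, close to the threshold (0.12, adjusted p = 0.0487). EDEM1, which sends misfolded glycoproteins for degradation, rose in all lines and least in SNK-10 (0.23 against 0.63 and 0.73). ERN1, the stress sensor IRE1, went the other way, up by 2.29 in SNK-10 and 0.90 in SNT-8, with 0.16 in SNT-16 that did not pass (difference 1.77 ± 0.17, adjusted p = 8.79e-10). Of 24 NRF2 and redox genes, 6 had a higher response, among them the cystine transporter SLC7A11 (1.52 against 0.87 and 1.02), and 1 a lower one, GCLM of glutathione synthesis (0.17 against 0.87 and 1.09; difference -0.81 ± 0.069, adjusted p = 4.10e-11). The count of 6 was 3 against SNT-16 alone.

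Cholesterol synthesis genes fell in the SNT lines (19 of 24 in each) and 16 fell in SNK-10, and 9 had a higher and 3 a lower response (median 0.18). INSIG1, which holds the sterol sensor in the endoplasmic reticulum, was at 0.03 in SNK-10, which did not pass, and fell in SNT-8 and SNT-16 (-0.71 and -0.40; difference 0.58 ± 0.067, adjusted p = 3.60e-08). HMGCS1, which makes HMG-CoA, rose by 0.27 in SNK-10 and fell in the others (-0.67 and -0.31), and DHCR7, of the last step to cholesterol, fell least in SNK-10. STARD4, a sterol carrier, and CYP51A1, a sterol demethylase, fell in SNK-10 (-0.37 and -0.28) and rose in SNT-8 (0.34 and 0.70). In SNT-16 STARD4 rose (0.49) and CYP51A1 did not pass (0.36). With DMSO, CYP51A1 was at 136 to 139 CPM in SNK-10, but at 2.73 to 4.76 in SNT-8 and 3.96 to 5.20 in SNT-16. Its treated SNT-8 libraries, at 4.72 to 7.18 CPM, overlapped the controls, so its SNT responses rest on low counts.

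Of 33 glycolysis and hypoxia genes, 9 had a lower and 2 a higher response, the lower count falling to 4 without SNK-10 DMSO replicate 1 and to 5 against SNT-8 alone. PGK1, a glycolytic kinase, rose in the SNT lines (0.72 and 0.68) and was at 0.05 in SNK-10, which did not pass. HK2, the hexokinase induced in tumours, fell in SNK-10 (-0.89) and did not pass in the SNT lines. FOXO targets had 7 of 23 with a higher response, led by CCNG2, an atypical cyclin (3.40 against 2.65 and 2.30), and including the apoptosis inducer BCL2L11 (1.38 against 0.95 and 0.98), and 2 with a lower one. Genes of MYC-driven ribosome production fell in all lines, 42 of 44 in each. They had 5 higher and 4 lower responses, not far from the shares over all genes tested (8.22% and 5.9%).

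**Figure D4:**
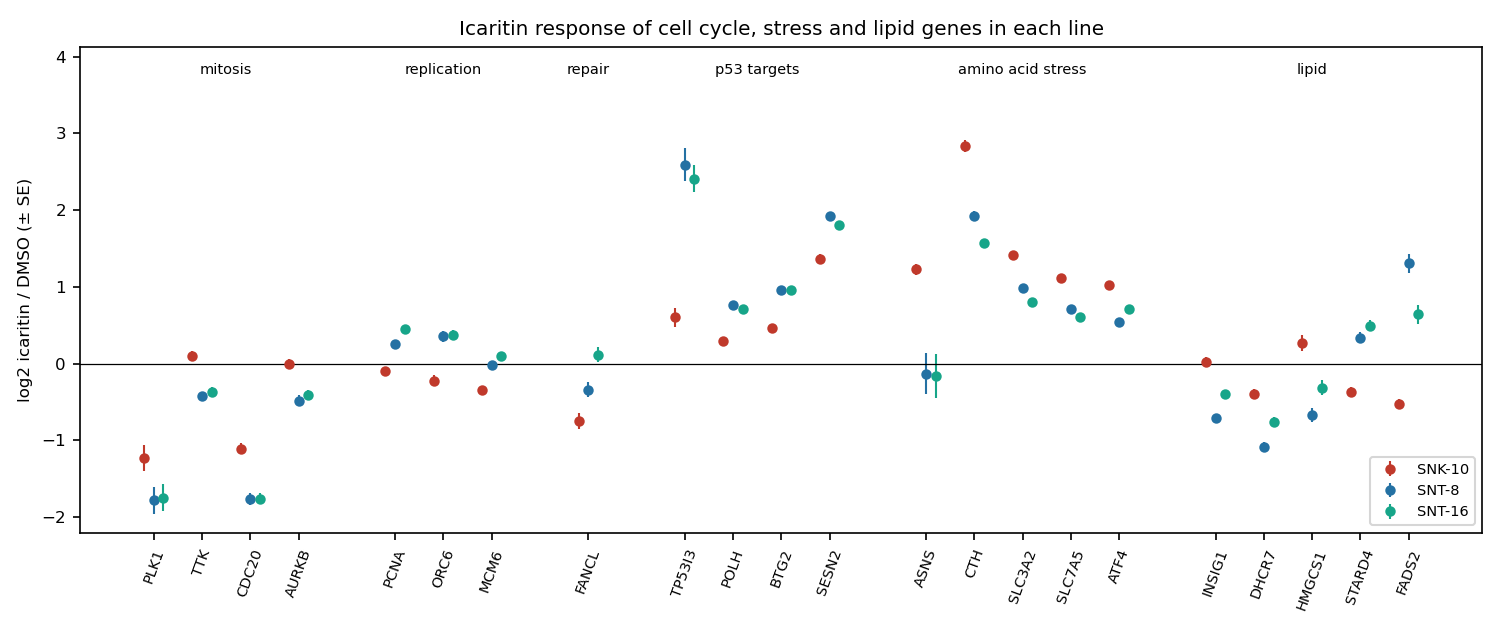
Response to icaritin (log2 icaritin over DMSO, vertical axis) of genes of the cell cycle, p53, amino acid stress and lipid synthesis in each line, with points for the fitted value and bars for its SE, from 3 libraries per group. The SNK-10 point lies above both SNT points for the mitotic genes and the amino acid stress genes shown, and below both for the replication, repair and p53 genes shown. Apart from PLK1, these genes were picked for a called difference in that direction, so the side of the SNT mean follows from the choice.

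**Figure D5:**
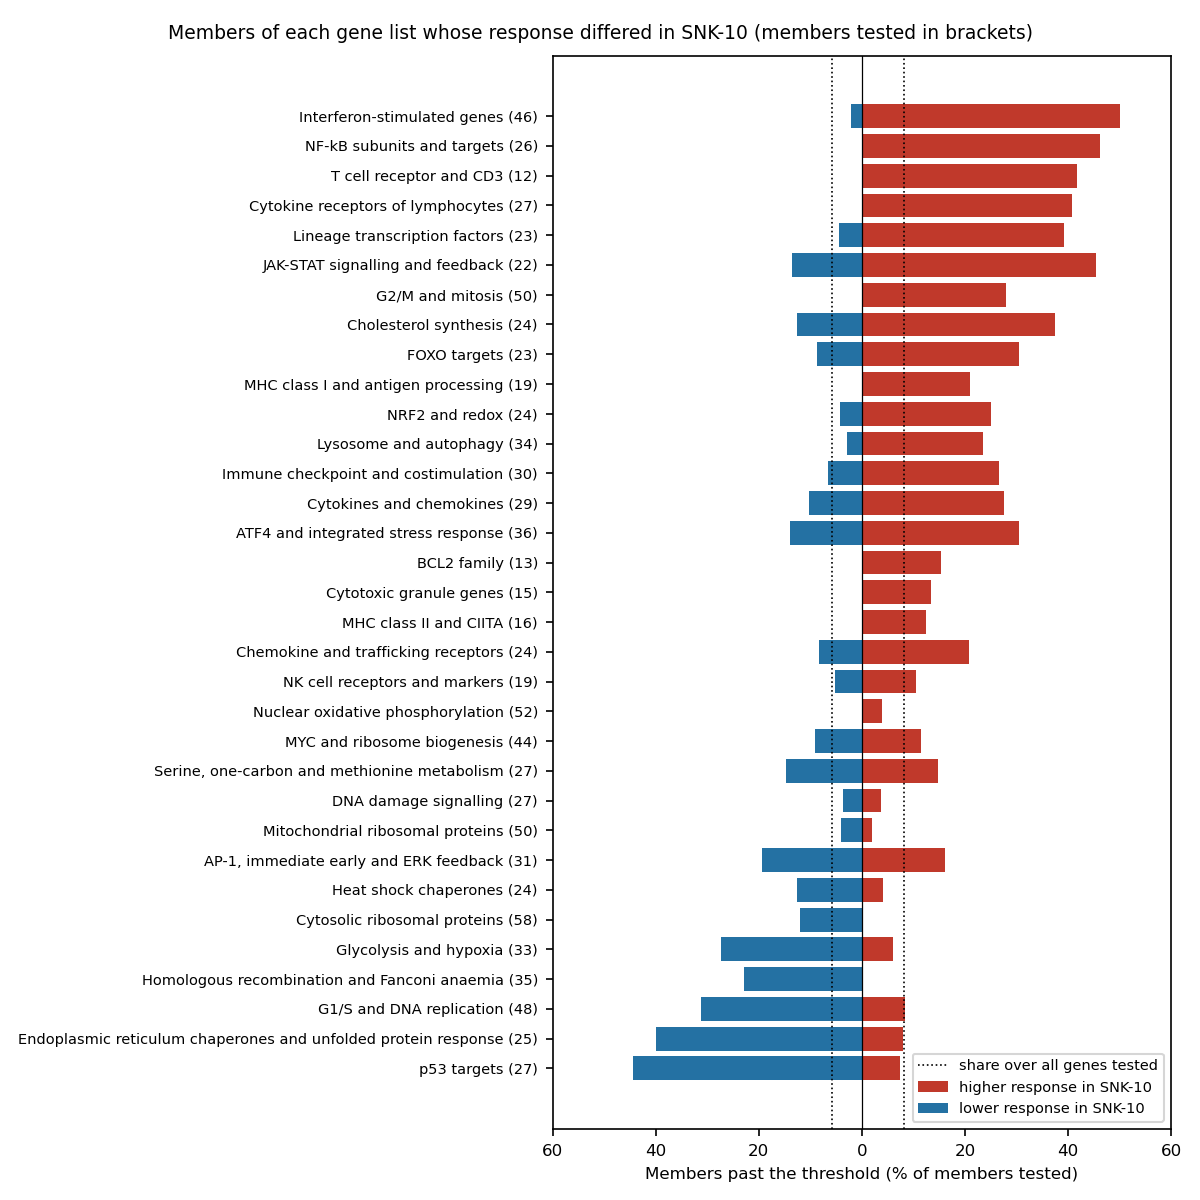
Share of each list's tested members with a higher (red, to the right) or lower (blue, to the left) response in SNK-10, in percent, with the number tested in brackets for lists of 10 or more. Dotted lines mark the shares over all genes tested, 8.22% higher and 5.9% lower; interferon-stimulated genes reach 23 of 46 on the right and p53 targets 12 of 27 on the left.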

How the data were processed

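RNA from SNK-10, SNT-8 and SNT-16 cells treated for 12 h with DMSO or icaritin was sequenced in 18 libraries, which were grouped by their titles. The deposited files give, per the file headers, an expected count (an estimated count of fragments, which need not be whole) and an FPKM value per gene, both computed by the authors. Bowtie2 and HISAT are named in the submitters' processing notes. Tool versions, the genome build and the counting tool: not given in the sources used here. Symbols came from RefSeq (GRCh38.p14), by gene ID for 21559 of 21662 genes and by transcript for 7; 96 had none.

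Expected counts were rounded to whole numbers, scaled by TMM and tested with edgeR 4.0.16 (R 4.3.3) by the quasi-likelihood F-test on 6 group means, which leaves 12 residual degrees of freedom, for 14396 genes that passed filterByExpr (minimum count 10, minimum total 15). P-values were adjusted over all genes by Benjamini-Hochberg, and called at 0.05; every adjusted p in the report is from this test unless another is named. SE is the log2 difference divided by the square root of F. FPKM was used for cell type markers only. The test was tested on simulated data. Alternatives were other scalings, filters, a replicate block, single comparison lines, limma-voom 3.58.1, DESeq2 1.42.0 and leaving out each library.

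Named genes were PLK1, the 12 highest and 12 lowest differences that also passed against each SNT line (mean of 10 CPM or more, 1 CPM or more in each group, with the value of every library for the first 8), up to 4 a direction with opposite responses, and up to 4 a direction per gene list by smallest p; some of these genes are not reported here. Some named genes reached the mean of 10 CPM through the groups where they were high, among them ASNS, THBS4, ATP9A, MTAP, ADPRH and KLHDC7B. Members and lists were chosen with earlier results of these data known.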

Additional observations from a re-analysis of the deposited data

Results flagged for a closer look

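The icaritin response differed between SNK-10 and the SNT lines, by the test of the difference itself, at 2033 genes, and between SNT-8 and SNT-16 at 63. Among the named genes, those that passed in opposite directions in SNK-10 and in each SNT line had log2 response differences of 1.27 for THBS4, 1.20 for ATP9A, 1.08 for GADD45B and 1.08 for ENPP2 on the higher side. On the lower side they were -1.50 for FADS2, -1.05 for LINC00174, -1.05 for MYBL1 and -1.02 for NEDD9. Their values by line are in the results above. Groups of 3 libraries were too small for a test of single outlying values.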

How the results depend on the processing

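The count of genes whose response differed stayed within 1.5 times the 2033 reported, at 1679 (DESeq2) to 2217 (no filter on low counts) across other tools, scalings, filters and the replicate block, 1551 and 1801 against SNT-8 or SNT-16 alone, 1615 to 2295 with each library left out and 2250 without both outlying libraries. Counts within lines also stayed within that range in every setting tried. The count of at least 2-fold differences was 8 among genes at 10 CPM or more with DMSO in each line and 89 by DESeq2, against 168. For SNT-8 against SNT-16 the 63 became 279 with no filter, 121 at 10 CPM or more, 105 by DESeq2, 17 to 178 with each library left out and 441 without both outlying libraries, an alternative chosen after seeing the data; the cause was not tested. Replicate numbers did not pair the libraries (r of -0.13 to 0.04 between same-numbered DMSO and icaritin libraries), and with the number as a replicate block the counts were 1832 and 47. The 24 genes named for their size or opposite responses kept direction and call in all 680 values computed under alternatives. Passing against SNT-8 alone and SNT-16 alone was a condition for naming them, so those values were fixed in advance. The other alternatives reuse the libraries from which these genes were picked as extremes, so the 680 values are not independent support. Over all 180 selected genes 4889 of 5183 values kept both, 289 lost the call, 5 gained it and none reversed. Other scalings moved the median difference of all genes by at most 0.020 (log2). Genes under about 10 CPM in a line limit what could be seen there.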
